A study of Homo sapiens with 17 samples.

Results

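The 53 genes described here encode the factors that copy DNA and the E2F transcription factors that drive their expression. They were listed by name and function, with earlier results of these data known. The list holds 14 genes of origin licensing, 6 of origin firing, 9 of the polymerases and primase and 5 E2F genes. It also holds 12 genes of the sliding clamp, its loader, single-stranded DNA binding, flap removal and ligation. The rest are 4 genes of deoxynucleotide supply and 3 of histone supply. All 53 were found among the 19141 genes of the count table, and all 53 passed the filter on low counts in both fits used below.

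YB5 cells, a line made from the human colon cancer line SW48 with 1 inserted copy of a CMV promoter driving GFP that DNA methylation keeps silent, were treated with 250 nM toyocamycin, an adenosine analogue studied here as an inhibitor of CDK9, or with DMSO, its solvent. Polyadenylated RNA was sequenced in 17 libraries: DMSO at 2 h (n = 2), 10 h (n = 1), 24 h (n = 1), 48 h (n = 1) and 72 h (n = 3), and toyocamycin at 2 h (n = 2), 10 h (n = 2), 24 h (n = 1), 48 h (n = 1) and 72 h (n = 3). Every library came from the same line, so all groups carry the reporter. The labels call the last time 72 h, whereas the study's text names a later hour, and the label is used here. The labels also give a sequencing or culture batch without saying which: the 2 libraries of each arm at 2 h come from batch 1 and batch 2, the DMSO library of 10 h from batch 2 and the toyocamycin libraries of 10 h from both, and every other library from batch 1.

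Totals ran from 8735465 to 22121364 counts per library. Toyocamycin 10 h replicate 2 stood apart: it had the lowest total, the highest mitochondrial share (6.55% of counts, against 0.917% to 3.49% in the other 16 libraries), and 14926 genes at 1 CPM or more, against 10957 to 12715 elsewhere. It also held 12.3 summed CPM of 3 endothelial markers and 24.5 of 7 fibroblast markers. The median log2 fold change at 10 h is therefore also given without it, as are the values of some members. The DMSO library of 10 h is of batch 2, so without this library the arms of 10 h differ in batch. The epithelial markers EPCAM, KRT8, KRT18, CDH1 and CDX2 were present in every library, while the intestinal genes KRT20, CDX1 and LGALS4 were at or below 0.21 CPM in DMSO. The summed level of 10 epithelial markers was 5990 to 6930 CPM in DMSO and 532 to 563 CPM in toyocamycin at 72 h. It also varied without the drug, down to 1760 CPM in DMSO at 10 h, when toyocamycin had 5140 and 4360. The markers did not move alike. Over all times CDX2 ran from 56.6 to 284 CPM in DMSO and from 96.9 to 1200 in toyocamycin, and KRT19 from 26.0 to 251 and from 2.69 to 75.6. At 72 h 6 immune markers summed to 0.0929 to 0.396 CPM in DMSO and 16.0 to 19.3 CPM in toyocamycin, led by CD14, and 7 fibroblast markers to 0.464 to 1.19 and 2.85 to 21.9 CPM. The part of these shifts in the results below was not tested.

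Replication begins in G1, when the origin recognition complex (ORC) together with CDC6 and CDT1 loads the MCM2-7 helicase on DNA, a step called licensing. At the start of S phase CDC45, the GINS complex and MCM10 turn the loaded helicase into an active fork, and the polymerases follow with their clamp, PCNA. Many of these genes are read in late G1 from promoters that bind E2F factors: E2F1, E2F2 and E2F3 activate them, and E2F7 and E2F8 repress them later in the cycle. In bulk RNA, fewer cells in S phase and less RNA per cell cannot be told apart.

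The 6 promoter stretches that follow were chosen to set members that fell within 2 h (CDC6, E2F2, E2F3) beside members with the same kind of E2F sequence that did not pass the test at that time (E2F1, MCM6, PCNA). Each is 80 bases of the GRCh38.p14 RefSeq promoter table, read 5′ to 3′ along the gene, with capitals for matches to TTTCCCGC, TTTCGCGC, TTTGCCGC or TTTGGCGC on either strand, which together spell the E2F consensus. The stretches lie at chr17:40287814-40287893, plus strand (CDC6), chr1:23531234-23531313, minus strand (E2F2), chr6:20401799-20401878, plus strand (E2F3), chr20:33686386-33686465, minus strand (E2F1), chr2:135876516-135876595, minus strand (MCM6), and chr20:5126623-5126702, minus strand (PCNA).
CDC6: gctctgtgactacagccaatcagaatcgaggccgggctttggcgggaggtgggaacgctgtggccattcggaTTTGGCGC
E2F2: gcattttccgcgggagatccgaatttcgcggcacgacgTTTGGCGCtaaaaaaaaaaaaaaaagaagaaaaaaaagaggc
E2F3: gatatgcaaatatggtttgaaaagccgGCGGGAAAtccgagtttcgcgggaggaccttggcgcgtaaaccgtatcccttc
E2F1: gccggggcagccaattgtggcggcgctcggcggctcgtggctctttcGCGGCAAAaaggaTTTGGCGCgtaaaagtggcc
MCM6: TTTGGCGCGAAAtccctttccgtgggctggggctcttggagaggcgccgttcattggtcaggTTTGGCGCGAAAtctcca
PCNA: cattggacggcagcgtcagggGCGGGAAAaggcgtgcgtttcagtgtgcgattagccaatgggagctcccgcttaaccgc
In CDC6 the match begins 7 bases after the annotated start, and in the other genes it lies before it. MCM6 holds 4 matches as 2 overlapping pairs, and E2F1 holds 2.

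Such a match was found in a 300-base promoter window of 21 of the 45 members with an entry (46.7%), against 822 of 14966 genes of the count table (5.49%). At 2 h the median log2 fold change was -0.02 in the 21 members with a match, of which 3 were called down, and -0.15 in the 24 without, of which 4 were. At 72 h it was -1.48, with 16 down and 2 up, against -2.18, with 21 down and 3 up. These are descriptions of letters in a fixed window, and MCM4, MCM5, GINS4, POLD3, DSCC1, RPA2, RPA3 and E2F8 had no entry.

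The RNA of these genes took a smaller share of the counts in toyocamycin than in DMSO, least so at 2 h, and the share in toyocamycin at 72 h was about that of 48 h. The 53 genes took 0.672% and 0.607% of all counts in DMSO at 2 h and 0.592% and 0.574% in toyocamycin. At 10 h they took 0.665% in DMSO and 0.349% and 0.357% in toyocamycin, at 24 h 0.596% and 0.18%, and at 48 h 0.683% and 0.147%. At 72 h the share was 0.621% to 0.627% in the 3 DMSO libraries and 0.133% to 0.159% in the 3 toyocamycin libraries. The DMSO share stayed between 0.596% and 0.683% throughout, and the toyocamycin libraries lay below it at every time.

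**Figure D1:**
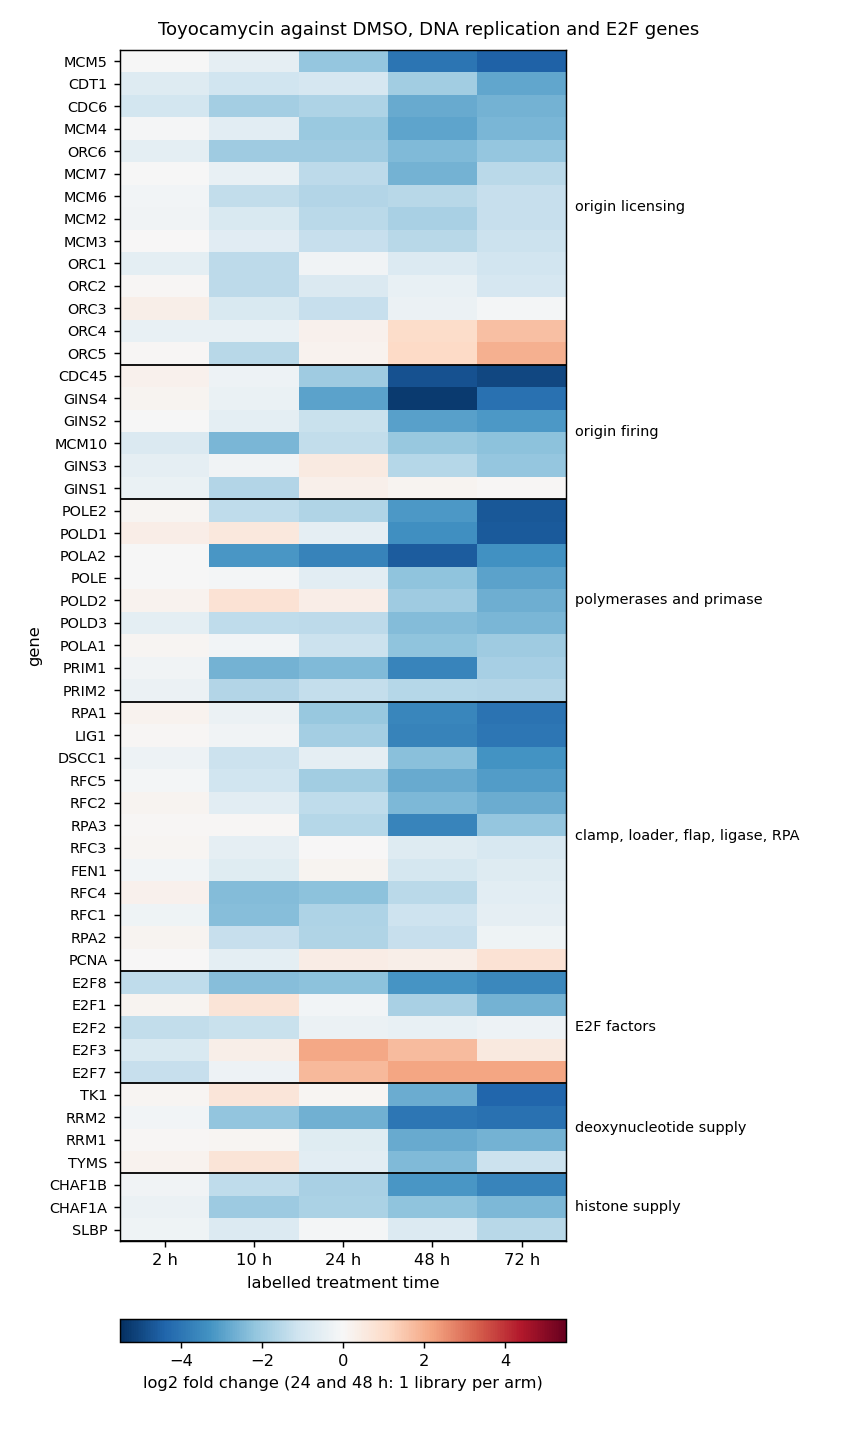
Log2 fold change of toyocamycin against DMSO for each of the 53 genes (rows, grouped by role and ordered by the 72 h value) at 5 labelled times (columns), blue for lower and red for higher. E2F2, E2F3, E2F7, E2F8 and CDC6 are the bluest cells of the 2 h column, POLD2, TYMS, TK1, POLD1 and E2F1 are pale red at 10 h, and at 72 h red is left in ORC4, ORC5, PCNA, E2F3 and E2F7, with GINS1 at 0.08.

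Counted gene by gene, the fall was narrow at 2 h and broad later. A gene is called where its Benjamini-Hochberg adjusted p over all genes tested is under 0.1 (edgeR quasi-likelihood test). At 2 h 8 members were called down and 0 up, against 8.42% of all 14491 genes down and 0.518% up. With the replicate number, which is the batch, as a block in a fit of the 2 h libraries alone, 16 were called down and 1 up, against 18.7% and 8.72% of all 11848 genes in that fit. The same libraries without the block gave 6 down, and batch as a term in all 17 libraries gave 9. The calls gained under the block were CDT1, ORC4, GINS1, GINS3, POLD3, RFC1, DSCC1 and CHAF1A, all down, and POLD1, which was up (0.34, adjusted p = 0.014). Without the block, 0 members were up at an unadjusted p under 0.05 in edgeR and 0 were called up in DESeq2. The polymerase, clamp, deoxynucleotide and histone groups had 0 calls at 2 h without the block, with 1 member down at that unadjusted level among the polymerases and 0 in the other 3, and 0 calls in DESeq2. At 10 h 30 members were called down and 2 up, against 24.4% and 20.4% of 16521 genes. Without toyocamycin replicate 2 the counts were 29 and 6 (28.0% and 24.0% of all genes), and within batch 2 alone they were 36 and 2 (27.0% and 39.1%). Leaving out that library ended 1 call, that of CDT1 (-1.09, adjusted p = 0.0505, against -0.62, adjusted p = 0.212 without it), and added POLD1, E2F1, E2F3 and TK1 to the members called up. At 72 h 44 were called down and 5 up, against 41.9% and 47.0% of all genes. With 1 library per arm there is no test at 24 and 48 h: 31 members were at least 2-fold lower and 2 higher at 24 h (27.8% and 29.7% of all genes), and 40 and 4 at 48 h (29.9% and 38.1%).

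The median log2 fold change of the 53 genes started at -0.03, against 0.02 over all genes tested, and stood at -0.74 against 0.42 by 10 h. The single libraries of 24 and 48 h gave -1.33 against 0.00 and -2.21 against 0.16, and 72 h gave -2.13 against 0.18. These values rest on TMM scaling, which takes the typical gene as constant. Scaled on mitochondrial counts, the median of all genes at 72 h was -0.89 and that of the members -3.18, and on library size alone they were -0.42 and -2.73.

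The effect of treatment itself differed between times. From 2 h to 72 h, 43 members had a lower effect and 7 a higher one by the test of the difference (38.1% and 38.0% of all genes). From 10 h to 72 h, a comparison added after the data had been seen, 29 were lower and 9 higher (26.6% and 25.4%). Between DMSO at 2 h and at 72 h, 3 members were called lower (RPA2, E2F2 and E2F3) and 3 higher (CDT1, RRM2 and TK1), against 11.4% and 10.2% of all genes. Those 2 groups differ in batch too, with 1 of the 2 libraries of 2 h in batch 2.

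Of the 5 E2F genes, 4 were among the 8 members called at 2 h, when 8.42% of all genes were called down. The paths of these 4 then parted. E2F2, an activator, was 60.7 and 51.5 CPM in DMSO and 25.6 and 18.4 CPM in toyocamycin at 2 h, a log2 fold change of -1.35 (SE 0.227, adjusted p = 0.00144). At 72 h its libraries overlapped, at 38.3, 41.0 and 30.6 CPM in DMSO and 25.7, 25.1 and 37.8 in toyocamycin (-0.28, adjusted p = 0.175). The difference between these effects was 1.07 (adjusted p = 0.00389).

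E2F7, a repressor of E2F targets, turned from the lower side to the higher. At 2 h it was 27.0 and 28.3 CPM in DMSO and 10.1 and 12.7 in toyocamycin (-1.28, SE 0.175, adjusted p = 2.64e-04). At 10 h it read 31.5 CPM in DMSO and 31.0 and 20.0 in toyocamycin, which did not pass the test. The single libraries then gave 16.8 against 56.9 CPM at 24 h and 22.3 against 99.5 at 48 h. By 72 h it stood at 21.7, 22.3 and 27.9 CPM in DMSO and 104, 112 and 105 in toyocamycin (2.19, SE 0.141, adjusted p = 8.14e-10), and the effect had moved by 3.47 (adjusted p = 2.67e-09). That rise was called under each of the 19 alternatives, from 1.14 to 2.51.

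E2F8, the other such repressor, went the opposite way. It was 12.7 and 11.4 CPM in DMSO and 4.85 and 4.33 in toyocamycin at 2 h (-1.38, SE 0.278, adjusted p = 0.00531), and 16.9, 16.3 and 19.8 against 1.87, 0.556 and 2.00 at 72 h (-3.54, SE 0.281, adjusted p = 9.45e-09). Its mean level in toyocamycin was lower at each later time.

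E2F3, an activator, was 55.4 and 62.4 CPM in DMSO and 31.9 and 34.3 in toyocamycin at 2 h (-0.83, SE 0.156, adjusted p = 0.0033). At 10 h it was 37.0 CPM in DMSO and 59.6 and 32.9 in toyocamycin, not called with both libraries (0.33, adjusted p = 0.34). Only the toyocamycin library of batch 1 lay above the DMSO library, which is of batch 2 (0.70 without replicate 2). The high point of E2F3 was 24 h, at 33.1 CPM in DMSO and 141 in toyocamycin, with 37.5 and 122 at 48 h. At 72 h it was 33.9, 29.2 and 36.1 CPM in DMSO and 45.9, 43.7 and 50.2 in toyocamycin (0.53, SE 0.128, adjusted p = 0.00126), a direction that turned with mitochondrial scaling (-0.54) and with library size alone (-0.07). DMSO itself fell by 0.83 on the log2 scale between 2 and 72 h (adjusted p = 9.96e-04).

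E2F1, the best known activator, was the exception at 2 h, with 153 and 105 CPM in DMSO and 168 and 117 in toyocamycin (0.15, adjusted p = 0.833). At 10 h it read 78.0 CPM in DMSO and 170 and 83.1 in toyocamycin, not called with both libraries (0.70, adjusted p = 0.175). The higher reading, of batch 1, gave 1.13 alone against the DMSO library, which is of batch 2. At 2 h E2F1 was higher in batch 1 than in batch 2 in both arms. It then fell to 17.8, 19.4 and 28.1 CPM at 72 h, against 148, 145 and 108 in DMSO (-2.58, SE 0.216, adjusted p = 1.79e-08). Its fall was thus seen only from 48 h on (43.0 CPM against 150 in DMSO).

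**Figure D2:**
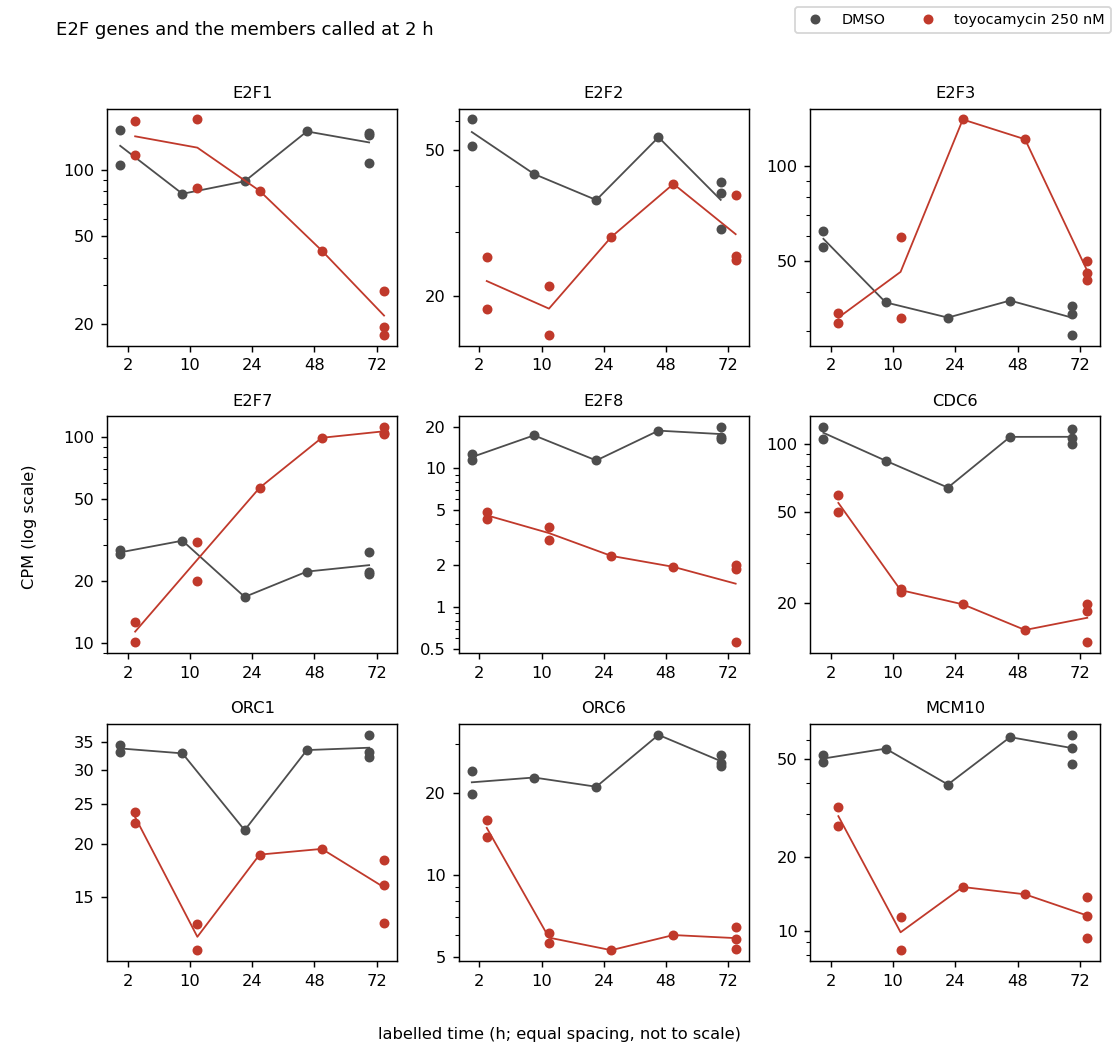
CPM of each library (points, log axis) and group mean (lines) at the 5 labelled times for the E2F genes and the other members called at 2 h, grey for DMSO and red for toyocamycin. At 2 h the red points lie below the grey ones in every panel but E2F1, and by 72 h E2F7 has crossed to 104 to 112 CPM while E2F8 has reached 0.556 to 2.00.

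In origin licensing, 3 of 14 members were called at 2 h, all down (5 under the block), 11 at 10 h, all down, and 11 down and 2 up at 72 h. Of all genes, 8.42% were called down at 2 h (18.7% under the block) and 24.4% at 10 h. At 72 h 41.9% of all genes were down and 47.0% up. CDC6, which helps ORC load the helicase, was the most changed at 2 h: 105 and 118 CPM in DMSO against 50.2 and 59.6 in toyocamycin (-1.02, SE 0.177, adjusted p = 0.00188). It reached 18.5, 13.4 and 19.7 CPM at 72 h, against 99.2, 106 and 116 in DMSO (-2.60, adjusted p = 3.86e-10). Its level in toyocamycin had come down to 23.1 and 22.4 CPM already at 10 h.

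CDT1, its partner in loading, was 159 and 98.2 CPM in DMSO and 95.5 and 59.2 in toyocamycin at 2 h, where the batches differed about as much as the arms (-0.73, adjusted p = 0.155). With the batch as a block its change was called (-0.74, adjusted p = 5.10e-10). That fit holds only the 4 libraries of 2 h. Its small adjusted p therefore leans on a spread shared across genes. At 72 h it was 229, 242 and 159 CPM in DMSO and 23.3, 27.1 and 34.0 in toyocamycin (-2.87, SE 0.239, adjusted p = 1.70e-08).

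The 6 ORC subunits split. ORC1 was 33.2 and 34.4 CPM in DMSO and 23.9 and 22.5 in toyocamycin at 2 h (-0.54, SE 0.174, adjusted p = 0.0841). ORC6 was 23.9 and 19.7 against 13.8 and 15.9 CPM (-0.55, SE 0.177, adjusted p = 0.0827). Both calls sat close to the threshold and were lost under 11 of 17 alternatives each. For ORC1 leaving out any 1 of the 4 libraries of 2 h ended the call (adjusted p = 0.139 to 0.312), and for ORC6 any but DMSO replicate 2 (0.154 to 0.378).

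At 72 h ORC1 (-1.07), ORC2 (-0.94) and ORC6 (-2.12) were called down, ORC3 was not called (-0.09, adjusted p = 0.718), and ORC4 and ORC5 were called up. ORC5 was the one member to fall at 10 h and rise at 72 h: 24.2 CPM in DMSO and 8.0 and 8.84 in toyocamycin at 10 h (-1.53, SE 0.249, adjusted p = 2.17e-04), then 16.1, 19.5 and 19.7 against 79.7, 55.6 and 72.9 at 72 h (1.94, SE 0.160, adjusted p = 1.49e-08). The 2 effects differed by 3.44 (adjusted p = 1.41e-07). ORC4 went from 21.1 against 17.1 and 14.6 CPM at 10 h, not called, to 17.1, 18.8 and 24.8 against 70.4, 55.2 and 60.7 at 72 h (1.65, SE 0.168, adjusted p = 1.87e-07). With mitochondrial scaling ORC5 was still called up (0.91), and ORC4 was not (0.63, adjusted p = 0.177).

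The 6 subunits of the MCM2-7 helicase, which act together as 1 ring, started level and drew apart. At 2 h their log2 fold changes lay within 0.20 of each other, from -0.18 (MCM2) to 0.02 (MCM3), and 0 were called. At 10 h MCM2, MCM3, MCM4 and MCM6 were called down, MCM6 most (-1.37), and MCM5 and MCM7 were not (-0.50 and -0.39). At 72 h all 6 were down, with MCM2 (-1.26), MCM3 (-1.17), MCM6 (-1.28) and MCM7 (-1.48) close together and MCM4 (-2.53) and MCM5 (-4.44) below them.

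MCM5 was 210, 206 and 172 CPM in DMSO at 72 h and 7.27, 8.43 and 10.7 in toyocamycin (SE 0.182, adjusted p = 6.21e-12). MCM3 was 217, 227 and 234 CPM against 95.6, 94.1 and 104. At 10 h MCM5 was 140 and 121 CPM in toyocamycin, below the 185 CPM of the DMSO library but not called. It was 36.9 CPM in toyocamycin at 24 h and 12.4 at 48 h, so most of its fall came after the first 10 h.

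Of the 6 firing genes, 1 was called at 2 h (3 under the block), 2 at 10 h and 5 at 72 h, all down. The shares of all genes called down were 8.42% (18.7% under the block), 24.4% and 41.9%, and the 10 h count is close to that share. Within batch 2 alone the median log2 fold change of the firing genes at 10 h was -0.55, against -0.44 with all libraries. MCM10, which helps the loaded helicase start, was the early one: 48.7 and 52.1 CPM in DMSO against 26.8 and 31.9 in toyocamycin at 2 h (-0.78, SE 0.187, adjusted p = 0.0172), and 55.3 against 8.35 and 11.4 at 10 h (-2.50, adjusted p = 4.02e-06). Its 2 h call was lost under 3 of 17 alternatives, among them the fit without toyocamycin replicate 1. At 72 h its log2 fold change was -2.24, which did not pass the test of a difference from 10 h (0.23, adjusted p = 0.656).

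CDC45, the helicase cofactor, followed the opposite timing. It was 38.8 CPM in DMSO and 31.9 and 31.6 in toyocamycin at 10 h, not called, then 29.4 against 7.57 at 24 h and 57.8 against 2.03 at 48 h. At 72 h it was 47.8, 53.2 and 53.1 CPM in DMSO against 0.688, 1.76 and 2.17 in toyocamycin, from 7, 19 and 25 counts, with a log2 fold change of -5.00 (SE 0.240, adjusted p = 3.02e-11), the lowest of the 53. GINS4 took the same course to -4.10 (SE 0.224, adjusted p = 1.21e-10), from 18.2, 18.2 and 20.5 to 1.18, 0.741 and 1.30 CPM, and GINS2 (-3.14) and GINS3 (-2.11) fell less. GINS1 alone of the 4 GINS subunits was not called at 72 h (0.08, adjusted p = 0.594), although it had been down at 10 h (-1.62, adjusted p = 1.50e-04).

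All 9 polymerase and primase genes were called down at 72 h, after 0 at 2 h (POLD3 down and POLD1 up under the block) and 5 down and 1 up at 10 h. Under the block 11.1% of the group was down and 11.1% up, against 18.7% and 8.72% of all genes. For all genes the shares were 24.4% down and 20.4% up at 10 h and 41.9% down at 72 h. POLE2, a subunit of the leading-strand polymerase epsilon, was 13.7, 14 and 15.8 CPM in DMSO and 0.295, 0.649 and 0.695 in toyocamycin at 72 h, the last 3 from 3, 7 and 8 counts (-4.66, SE 0.285, adjusted p = 4.27e-10). POLD1, the catalytic subunit of the lagging-strand polymerase delta, was 115, 110 and 75.1 against 2.56, 3.52 and 5.56 CPM (-4.64, SE 0.275, adjusted p = 3.08e-10). At 10 h the former was already down (-1.39, adjusted p = 0.00176) and the latter was not called (0.58, adjusted p = 0.234). Without toyocamycin replicate 2, which leaves arms of different batches, the latter read 0.95.

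POLD2, the accessory subunit of polymerase delta, rose before it fell. It was 249 CPM in DMSO and 490 and 382 in toyocamycin at 10 h (0.81, SE 0.236, adjusted p = 0.0139), a rise that turned with mitochondrial scaling (-0.29). At 72 h it was 327, 346 and 275 CPM against 48.2, 48.7 and 48.3 (-2.67, SE 0.129, adjusted p = 3.07e-11), a difference of -3.51 between the times (adjusted p = 1.36e-07). POLD3, the third delta gene, had meanwhile been called down at 10 h (-1.38), so the 3 subunits spanned 2.18 log2 units at that time.

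The alpha-primase complex lays the RNA-DNA primers. POLA2 and PRIM1 were called down at 10 h, at -3.20 (SE 0.467, adjusted p = 8.20e-05) and -2.58 (SE 0.439, adjusted p = 3.03e-04) on the log2 scale, while the catalytic POLA1 did not pass the test (-0.14, adjusted p = 0.697). POLA2 was 10.8 CPM in DMSO and 1.14 and 1.22 in toyocamycin, from 16 and 11 counts. Both are low genes, and 16.8% of the exonic length of POLA2 is shared with another protein-coding gene on the same strand. PRIM1 shares 10.9% of its exonic length with 1 protein-coding gene on the same strand and 4.2% with another, NACA. At 72 h POLA1 (-1.94), POLA2 (-3.33), PRIM1 (-1.82) and PRIM2 (-1.63) were all down, as were POLE (-2.96) and POLD3 (-2.51).

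Among the 12 genes of the clamp, loader, RPA and ligation group, 0 were called at 2 h (RFC1 and DSCC1 down under the block), 7 down at 10 h, and 10 down and 1 up at 72 h. Under the block 16.7% of this group was down, against 18.7% of all genes. The shares of all genes were 24.4% down at 10 h, and 41.9% down and 47.0% up at 72 h. The deepest falls were in RPA1, the large subunit of the single-strand binding protein, and LIG1, the ligase that joins Okazaki fragments. RPA1 was 177, 190 and 200 CPM in DMSO and 10.5, 8.99 and 14.2 in toyocamycin at 72 h (-4.04, SE 0.171, adjusted p = 8.51e-12). LIG1 was 104, 100 and 80.6 against 6.19, 6.49 and 5.13 CPM (-3.97, SE 0.200, adjusted p = 5.05e-11). Neither was called at 10 h (-0.32 and -0.19).

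DSCC1, a subunit of an alternative clamp loader, was 29.0, 29.1 and 30.4 CPM in DMSO and 3.93, 1.58 and 3.39 in toyocamycin at 72 h (-3.28, SE 0.232, adjusted p = 2.29e-09). PCNA, the clamp itself, was the member of this group that rose: 222, 234 and 261 CPM in DMSO and 419, 376 and 406 in toyocamycin at 72 h (0.78, SE 0.134, adjusted p = 6.06e-05). The call was lost with library size alone (0.18), and the sign turned with mitochondrial scaling (-0.28). At 10 h PCNA read 181 CPM in DMSO and 169 and 82.6 in toyocamycin, and was not called (-0.52, adjusted p = 0.201).

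In this group 3 members fell by 10 h and came back, and they were picked out after their values were seen. RFC1, the large subunit of the clamp loader, was 117 CPM in DMSO and 20.8 and 25.9 in toyocamycin at 10 h (-2.33, adjusted p = 3.31e-06), and 91.9, 104 and 121 against 82.3, 65.9 and 72.0 at 72 h (-0.49, adjusted p = 0.00372). RFC4 went from -2.40 (adjusted p = 1.30e-06) to -0.59 (adjusted p = 6.12e-04), and RPA2 from -1.25 (adjusted p = 4.26e-04) to -0.22 (adjusted p = 0.144). The effect at 72 h was higher than at 10 h by 1.81 for RFC1, 1.78 for RFC4 and 1.0 for RPA2, each with a called difference (adjusted p = 5.37e-05, 2.18e-05 and 0.00578).

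The other loader subunits kept falling, RFC2 to -2.73 and RFC5 to -3.08, and RFC3 (-0.87) and FEN1 (-0.71), the flap nuclease, fell less. RPA3 was not called at 10 h (0.08) and was down at 72 h (-2.13).

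**Figure D3:**
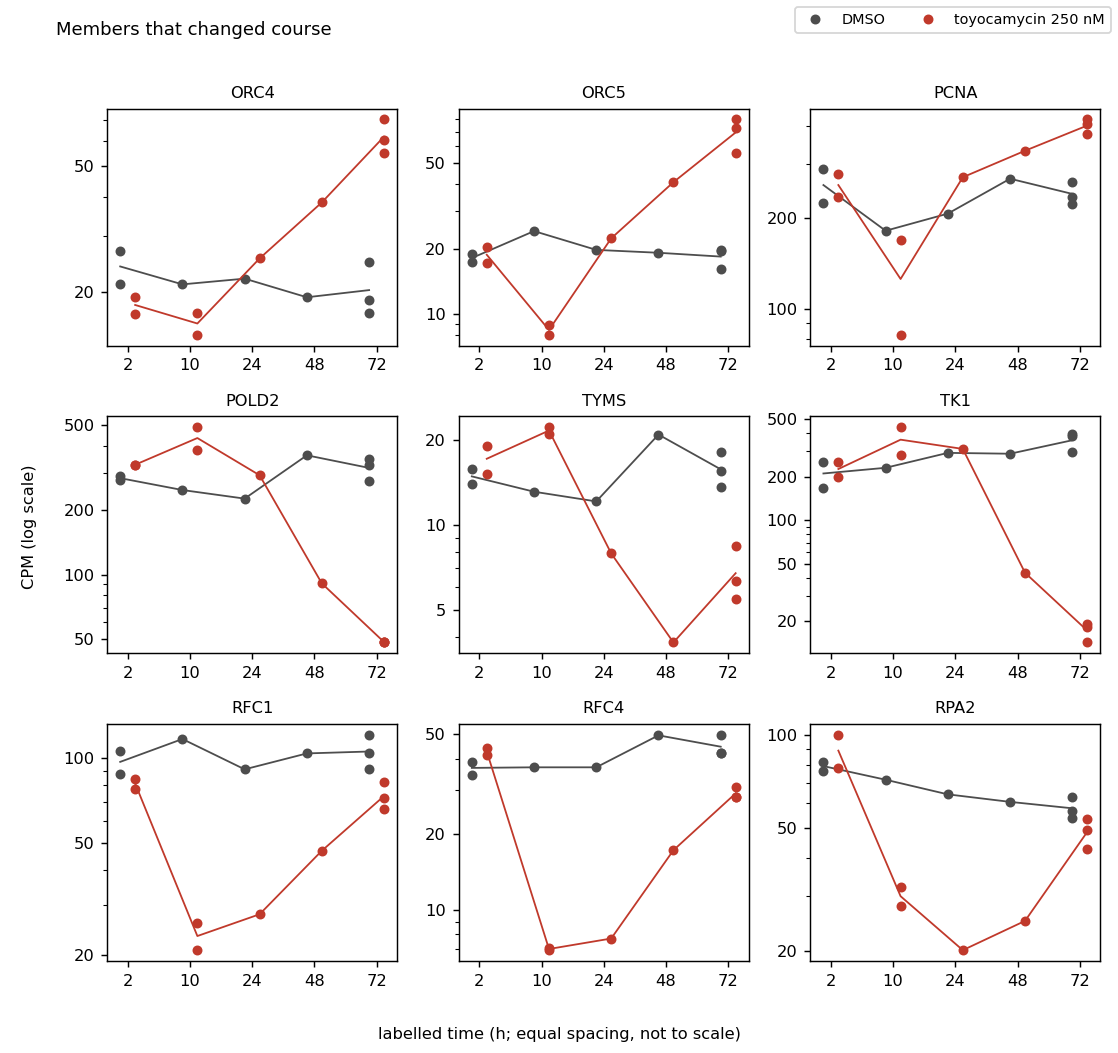
CPM of each library (points, log axis) and group mean (lines) at the 5 labelled times for 9 members chosen for paths that change direction or start late, grey for DMSO and red for toyocamycin. ORC4, ORC5 and PCNA end above DMSO, POLD2, TYMS and TK1 end below it after 10 h values above it, and RFC1, RFC4 and RPA2 dip at 10 or 24 h and return towards it.

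The 4 genes of deoxynucleotide supply were all called down at 72 h, against 41.9% of all genes, by different routes. RRM2, the small subunit of ribonucleotide reductase, was 287 CPM in DMSO and 62.5 and 65.5 in toyocamycin at 10 h (-2.16, adjusted p = 4.38e-06), and 305, 309 and 364 against 19.0, 15.4 and 20.9 at 72 h (-4.11, SE 0.157, adjusted p = 3.33e-12). Its partner RRM1 was 170 CPM against 169 and 196 at 10 h (0.10, adjusted p = 0.731) and fell only later (-2.61 at 72 h, adjusted p = 1.26e-10).

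TK1, the S-phase thymidine kinase, was 231 CPM in DMSO and 441 and 282 in toyocamycin at 10 h, not called with both libraries (0.65, adjusted p = 0.132). Replicate 1 alone gave 0.94, but it is of batch 1 and the DMSO library is of batch 2. The single libraries of 24 h were near each other at 293 and 312 CPM, and those of 48 h were 289 and 43.4. At 72 h it was 386, 393 and 296 against 14.3, 18.2 and 19.3 CPM (-4.34, SE 0.205, adjusted p = 2.50e-11).

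TYMS, thymidylate synthase, was called up at 10 h, from 13.1 CPM in DMSO to 22.2 and 21.0 (0.72, SE 0.277, adjusted p = 0.0512), and down at 72 h, from 18.1, 13.6 and 15.5 to 6.29, 5.47 and 8.43 (-1.19, SE 0.196, adjusted p = 3.78e-05). The difference was -1.95 (adjusted p = 1.65e-04). The 10 h rise turned with mitochondrial scaling (-0.41), and 39.9% of the exonic length of TYMS overlaps ENOSF1 on the other strand, and the strand setting of the counting is not given in the sources used here.

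Of the 3 genes of histone supply, 0 were called at 2 h (CHAF1A down under the block), 2 at 10 h and 3 at 72 h, all down. The shares of all genes called down were 18.7% under the block, 24.4% at 10 h and 41.9% at 72 h. CHAF1A and CHAF1B encode the chromatin assembly factor CAF-1, which places histones behind the fork. CHAF1B was 48.7, 55.6 and 57.2 CPM in DMSO and 2.75, 4.63 and 5.39 in toyocamycin at 72 h (-3.62, SE 0.194, adjusted p = 9.75e-11), with CHAF1A at -2.49 and SLBP, which binds the histone mRNA stem-loop, at -1.51.

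**Figure D4:**
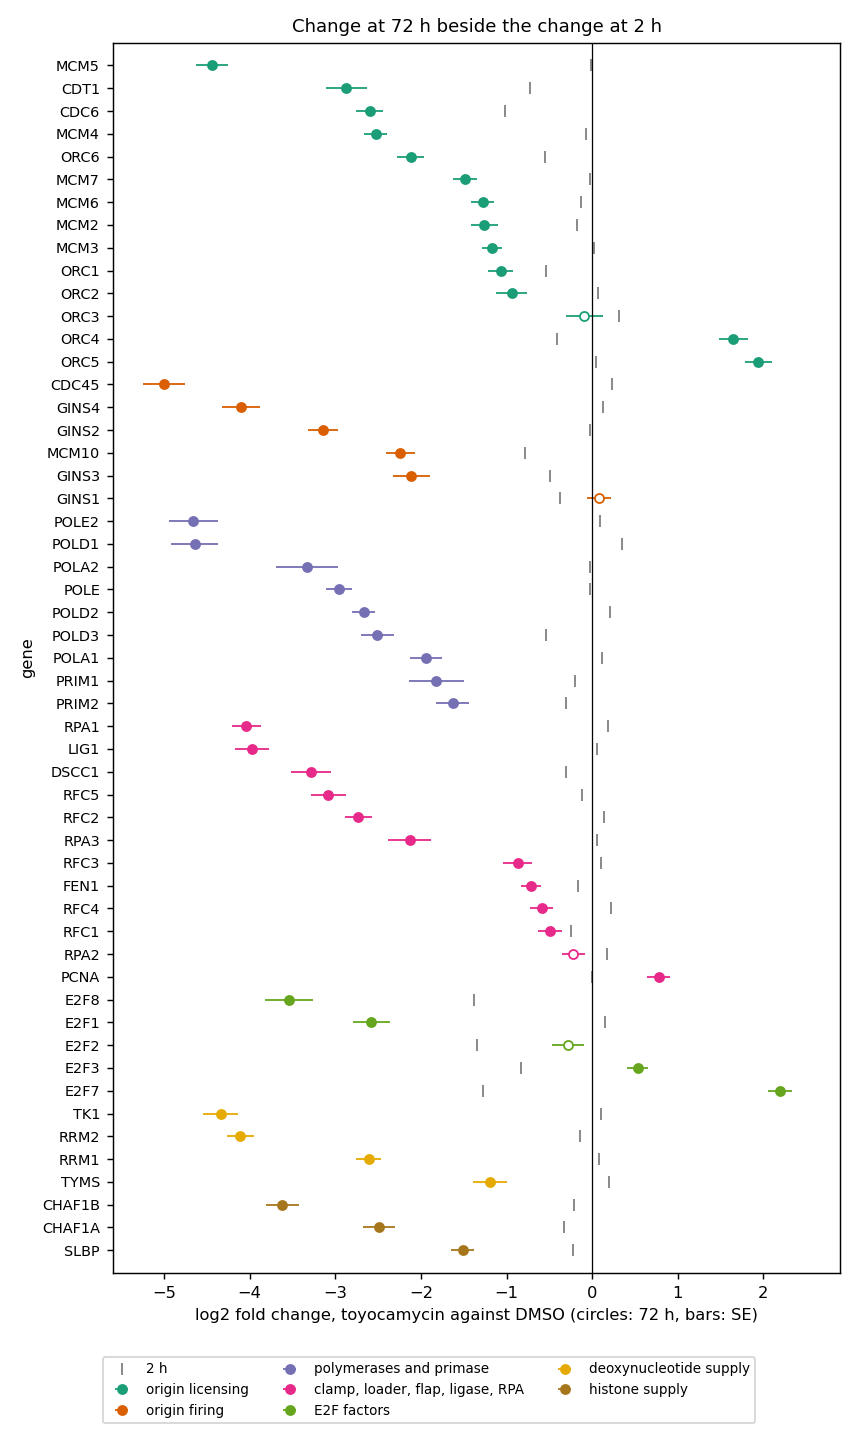
Log2 fold change at 72 h for the 53 genes (circles, bars give 1 SE, filled where the gene was called, coloured by role), with the 2 h value as a grey tick. The 2 h ticks lie between -1.38 and 0.35, and the circles spread from -5.00 (CDC45) to 2.19 (E2F7), with ORC3, GINS1, RPA2 and E2F2 open.

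Subunits of 1 complex can be compared within a library as the ratio of their CPM per kb of exon, which no scaling between libraries can alter. The pairs were chosen after their values were seen and carry no test. MCM5 to MCM3 was 0.369 to 0.487 in DMSO at 72 h and 0.0381 to 0.0514 in toyocamycin, and 0.424 to 0.433 at 10 h, when DMSO was 0.397. RPA1 to RPA2 went from 1.14 to 1.21 in DMSO to 0.0757 to 0.0953 at 72 h, having been 1.88 and 2.60 at 10 h against 1.16 in DMSO. Both ratios were thus far below DMSO at 72 h, and that of RPA had first been above it.

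RFC2 to RFC1 did the same in a wider swing: 3.09 in DMSO and 10.3 and 10.4 in toyocamycin at 10 h, and 2.64 to 3.39 against 0.461 to 0.795 at 72 h. RRM1 to RRM2 was 1.28 in DMSO and 5.85 and 6.45 in toyocamycin at 10 h, and 0.998 to 1.01 against 2.36 to 3.35 at 72 h. ORC5 to ORC1 was 0.418 to 0.492 in DMSO and 3.59 to 3.82 in toyocamycin at 72 h. At 72 h the 2 arms did not overlap in any of these ratios.

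**Figure D5:**
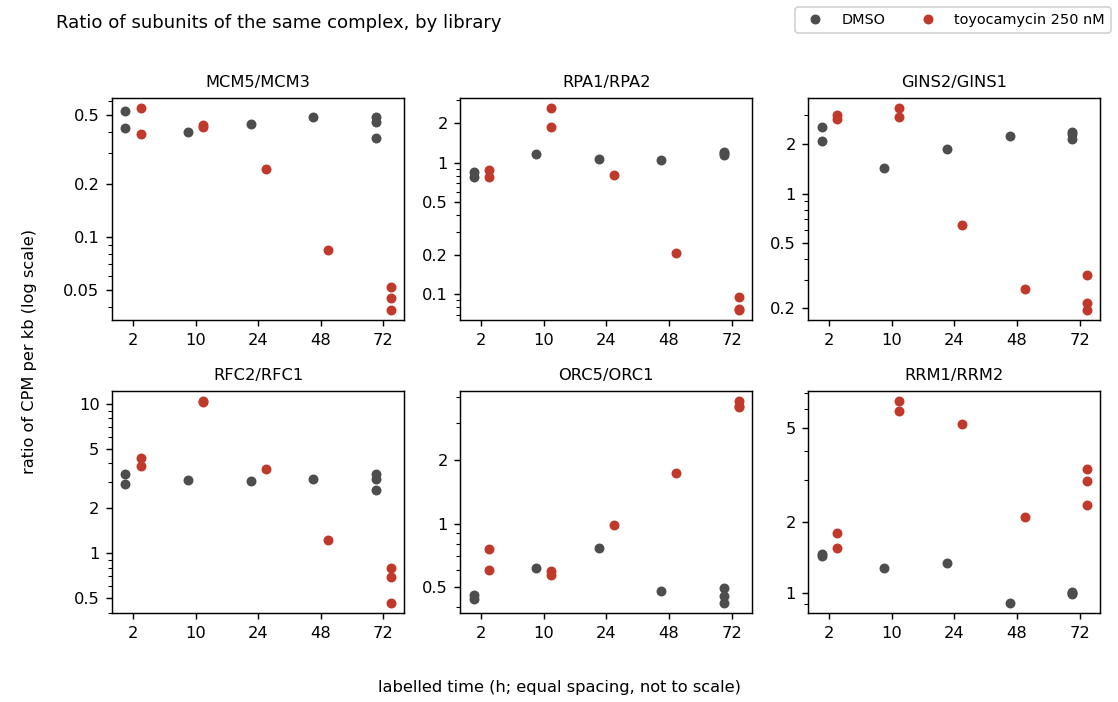
Ratio of CPM per kb for 6 pairs of subunits (panels) in each library (points, log axis) at the 5 labelled times, grey for DMSO and red for toyocamycin. At 72 h the red and grey points do not overlap in any panel, and RFC2/RFC1 lies above DMSO at 10 h, at 10.3 and 10.4, and below it at 72 h, at 0.461 to 0.795.

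The order of levels per kb of exon changed with treatment. In DMSO at 72 h the highest were TK1 (194 CPM per kb), PCNA (170) and MCM7 (126), and the lowest POLA2 (0.74) and PRIM1 (1.65). In toyocamycin PCNA led with 285, followed by MCM7 with 44 and SLBP with 34.5, and TK1 was at 9.34. Among the E2F genes E2F1 was highest in DMSO, at 49.7 CPM per kb against 3.81 for E2F7, and E2F7 was highest in toyocamycin, at 17 against 8.08. The ratio of E2F7 to E2F1 was 0.0626 to 0.111 in the DMSO libraries of 72 h and 1.60 to 2.51 in those of toyocamycin.

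Another 50 genes of the same pathway, listed by function, were tested for context. At 2 h 8 were called down and 0 up, against 8.42% and 0.518% of all genes tested. By 10 h 18 were down and 8 up (24.4% and 20.4% of all genes), and 72 h gave 35 and 9 (41.9% and 47.0%). Their median log2 fold changes were 0.02, -0.38 and -1.19 in that order. The 8 of 2 h were the initiation genes GMNN (-1.27), TICRR (-1.39), MCM9 (-0.75), DBF4 (-0.86) and MTBP (-0.91), the clamp unloader ATAD5 (-0.87), the repressor E2F6 (-0.75) and DTL (-0.65), which targets CDT1 for breakdown. At 72 h TICRR, which helps fire origins, and GMNN, the inhibitor of CDT1, were down (-2.86 and -1.60) and E2F6 was up (2.55, adjusted p = 1.21e-10), each under every scaling tried. MTBP (-0.47) and DBF4 (-0.37) were called down and MCM9 (1.10) up, of which the first pair was not called with DESeq2 size factors and MCM9 not with mitochondrial scaling (0.06). ATAD5 and DTL were not called (-0.02 and -0.08), and their sign changed with the scaling.

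Among the other genes averaging a log2 CPM of 3 or more, the 5 largest changes at 72 h were all falls: the fork protection genes CLSPN (-4.39, SE 0.233, adjusted p = 8.77e-11) and TIMELESS (-4.33, SE 0.150, adjusted p = 1.43e-12), PCLAF (-4.19), a PCNA-binding factor, SAMHD1 (-3.84), which breaks down deoxynucleotides, and UHRF1 (-3.75), which carries DNA methylation through replication. The E2F partner TFDP1 was down (-2.60), and RRM2B, the other small subunit of ribonucleotide reductase, was up (3.10, adjusted p = 7.45e-10), the reverse of RRM2. CHTF8, which works with DSCC1 in the alternative clamp loader, averaged less than that but went from 0.0496, 0.0929 and 0 CPM in DMSO to 18.7, 15.5 and 18.2 in toyocamycin, while DSCC1 fell. Overlap with exons of other genes was examined only for the 53 members, not for CHTF8, and the source of its near-zero level in DMSO was not tested. RRM2B, TFDP1 and CHTF8 were chosen after their values were seen.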

How the data were processed

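RNA-seq libraries of YB5 cells were grouped by the treatment, time, replicate and batch in the GEO labels. The authors aligned reads to GRCh38 with STAR 2.7.5a and deposited raw counts per gene. Their table of test results (fold changes and p-values) was not used, nor was 1 count column that matches no sample. Counts were analysed with edgeR 4.0.16 in R 4.3.3, after the study's methods: filterByExpr, TMM, quasi-likelihood test, Benjamini-Hochberg adjusted p under 0.1. One fit of 14 libraries (14491 genes) served 2, 24, 48 and 72 h, and one of all 17 (16521 genes) served 10 h. CPM values use TMM over 17 libraries. The fits were tested on simulated data. Gene symbols, positions and exon lengths came from the GENCODE annotation. DESeq2 1.42.0 was an alternative.

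The 53 genes, the other lists and the tests were chosen with earlier results of these data known. Genes named with full values were every member called at 2 h, the 12 largest falls and up to 12 rises at 72 h (average log2 CPM of 3 or more, no overlap between arms), members called in opposite directions at 2 times, the 5 E2F genes, and other pathway genes called at 2 h or among the 5 largest changes at 72 h. Others named are said to be chosen after their values were seen, or stand in a complex with these. The labels describe biological triplicates. Replicate numbers equal the batch at 2 h, so they pair those libraries (correlation of same-numbered deviations 0.307). At 72 h they do not (-0.105 to 0.0427). Precision is limited by 1 to 3 libraries per group.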

Additional observations from a re-analysis of the deposited data

Results flagged for a closer look

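The effect of toyocamycin differed between times, by the test of the difference, for most of the 53 genes. Between 2 h and 72 h, 43 had a lower effect and 7 a higher one, against 38.1% and 38.0% of all genes. Between 10 h and 72 h, a comparison added after the data had been seen, 29 were lower and 9 higher, against 26.6% and 25.4%. 5 genes were called in opposite directions at different times. The log2 fold change moved by 3.47 for E2F7 and 1.36 for E2F3 from 2 h to 72 h, and by 3.44 for ORC5, -3.51 for POLD2 and -1.95 for TYMS from 10 h to 72 h. No group had the 4 libraries needed to look for a single library far from its group.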

How the results depend on the processing

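At 72 h 37 to 48 members were called down over 19 alternatives and 2 to 6 up. The count down stayed within 1.5 times, and the count up was 3 with library size alone and 2 with mitochondrial scaling. At 2 h, calls down were 0 with mitochondrial scaling, 3 with a minimum fold of 1.5 and 16, with 1 up, under the replicate block, which pairs the batches, and 6 to 8 leaving out 1 library. The block changed no count at 72 h by over 1.5 times. At 10 h, calls down were 44 with library size alone and 23 with a minimum fold of 1.5. Calls up at 10 h were 4 with DESeq2 size factors, 6 with the DESeq2 Wald test, 4 without a filter, 4 with 10 counts in every library, 1 at adjusted p under 0.05, and 0 with library size alone, mitochondrial scaling or a minimum fold of 1.5. Leaving out 1 toyocamycin library of 10 h leaves 1 library per arm, and the median log2 fold change of the members was then -0.62 or -0.97. At 24 h mitochondrial scaling put 51 members past 2-fold lower and 0 higher, and library size alone put 1 higher; at 48 h these put 0 and 2 higher. The effect at 72 h was higher than at 2 h for 4 members with library size alone and 1 with mitochondrial scaling, which also gave 19 lower and 5 higher than at 10 h. In DMSO, 72 h against 2 h, members lower numbered 6 with library size alone, 0 with mitochondrial scaling or a minimum fold of 1.5, 1 at adjusted p under 0.05 and 1 with all 17 libraries, and members higher 0 with mitochondrial scaling or a minimum fold of 1.5, 5 with the edgeR 4 quasi-likelihood fit and 1 to 5 leaving out 1 library. Signs turned at 72 h for PCNA (-0.28, mitochondrial scaling), E2F3 (-0.07, library size alone; -0.54, mitochondrial scaling) and E2F2 (0.04 with DESeq2 size factors and Wald test, 0.00 with 10 counts in every library), and at 10 h with mitochondrial scaling for POLD2 (-0.29) and TYMS (-0.41). The cause was not tested. CDC45 at 72 h rests on 7 to 25 counts per toyocamycin library and POLE2 on 3 to 8. Other low counts there were 8 to 15 for GINS4, 6 to 23 for E2F8, 1 to 15 for POLA2 and 13 to 18 for PRIM1. A non-coding gene on the other strand overlaps 21.0% of the exonic length of GINS4, and another overlaps 23.6% of that of MCM2.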
